A study of Mus musculus with 6 samples.

Results

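The Gimap genes are 8 neighbouring genes of mouse chromosome 6 (Gimap1, Gimap3, Gimap4, Gimap5, Gimap6, Gimap7, Gimap8 and Gimap9), taken by their symbols from the gene tables of 4 RNA libraries. All 8 were found among 14455 gene symbols. The libraries were total RNA of sorted LSK cells from C57BL/6 mice. These are the bone marrow cells that lack lineage markers (Lin-) and carry both Sca-1 and c-Kit, the fraction in which stem cells and early progenitors lie. The design crossed genotype, wild type (WT) or Setd2 knockout (KO), with time after injection of pI-pC, a double-stranded RNA that provokes an interferon response and is used to induce gene deletion. Setd2 encodes a methyltransferase of lysine 36 on histone H3. Cells called young were taken 4 weeks after pI-pC and cells called old 8 months after it, and per the labels WT cells are timed from pI-pC as well. Each of the 4 groups was 1 library, so every difference below compares 2 libraries, without a spread between replicates and without a p-value. The sources used here do not give the Cre driver of the deletion, the age and number of the animals, or whether animals were pooled. Where 4 values follow each other below, young WT comes first, young KO next, then old WT, with old KO last.

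GIMAP proteins (GTPases of the immunity-associated protein family) share a nucleotide-binding domain of the AIG1 type and sit largely on intracellular membranes. They are best known from lymphocytes, where several of them govern survival: mice or rats without a working Gimap5 lose T cells, and Gimap5 has also been tied to the upkeep of blood stem cells. Their genes lie side by side, so that one stretch of chromatin carries the whole family.

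The promoters of 4 of these genes are shown because their genes carry the main differences: Gimap6 was the most abundant member, Gimap3 and Gimap7 differed most between libraries, and Gimap9 went the other way in old KO cells. Each run gives 250 bases before and 50 bases after the RefSeq transcript start (GRCm38.p6), 5′ to 3′ on the gene's own strand. They cover chr6:48708195-48708494 (minus strand) for Gimap6, chr6:48770802-48771101 (minus strand) for Gimap3, chr6:48718371-48718670 (plus strand) for Gimap7 and chr6:48675885-48676184 (plus strand) for Gimap9. Capitals mark any of 5 short motifs, named ETS, RUNX, GATA, TCF/LEF and TATA, searched on both strands and spelled out after the runs; matches did not overlap.
Gimap6: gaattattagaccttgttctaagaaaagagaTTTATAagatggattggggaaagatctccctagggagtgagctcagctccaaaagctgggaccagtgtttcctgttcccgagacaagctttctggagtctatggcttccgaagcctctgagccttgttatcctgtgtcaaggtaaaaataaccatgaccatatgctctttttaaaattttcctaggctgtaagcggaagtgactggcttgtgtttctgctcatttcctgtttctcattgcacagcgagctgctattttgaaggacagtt
Gimap3: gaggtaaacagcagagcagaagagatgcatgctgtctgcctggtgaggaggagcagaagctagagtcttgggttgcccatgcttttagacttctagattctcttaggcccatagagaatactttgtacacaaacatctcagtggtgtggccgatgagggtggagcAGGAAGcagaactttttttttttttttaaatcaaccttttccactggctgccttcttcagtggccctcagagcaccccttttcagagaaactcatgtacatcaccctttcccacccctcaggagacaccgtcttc
Gimap7: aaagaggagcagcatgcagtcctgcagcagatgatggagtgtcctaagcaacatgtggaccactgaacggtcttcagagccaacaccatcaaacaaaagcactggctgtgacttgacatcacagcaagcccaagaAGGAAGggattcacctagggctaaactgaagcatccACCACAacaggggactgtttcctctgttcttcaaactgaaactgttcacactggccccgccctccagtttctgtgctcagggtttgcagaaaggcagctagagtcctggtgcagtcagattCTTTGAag
Gimap9: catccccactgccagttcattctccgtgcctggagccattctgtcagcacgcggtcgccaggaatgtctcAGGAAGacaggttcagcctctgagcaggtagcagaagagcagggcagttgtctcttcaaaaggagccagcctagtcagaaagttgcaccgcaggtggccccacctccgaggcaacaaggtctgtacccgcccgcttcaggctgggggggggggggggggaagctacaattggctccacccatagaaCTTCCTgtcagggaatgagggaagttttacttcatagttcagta

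All 8 members had a promoter entry, and Gimap8 had 2, which makes 9 windows. The ETS letters, AGGAAG, stood in 7 of the 9 windows, with a match for each member except Gimap6, and in 35.4% of 32851 promoter windows of the same length. The RUNX letters, TGTGGT, stood in 3 windows (Gimap1, Gimap4 and Gimap7) and in 16.8% of all windows. The TCF/LEF letters, CTTTGA, stood in 2 (Gimap4 and Gimap7) and in 16.0% of all. The TATA letters, TATAAA, stood in 1 (Gimap6) and in 13.6% of all, and the GATA letters, AGATAA, in 0 and in 11.2% of all. Gimap7 and Gimap4 thus shared 3 of the motifs, while windows of Gimap3, Gimap5, Gimap8 and Gimap9 held the ETS letters alone. The TATA match of Gimap6 lay at position -219 from the transcript start, on the strand opposite to the gene. The member windows held 2 to 8 CG dinucleotides, with 8 at Gimap9 and 2 at Gimap3 and Gimap7, where all windows had a median of 7 and quartiles of 3 and 20. These matches describe exact letters and not bound sites, and other spellings of a motif were not searched.

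Values are FPKM (fragments per kilobase of transcript, relative to library size), which allows levels of different genes to be compared per length, after scaling of the libraries to each other. The files list only genes at 0.5 or more, so an unlisted gene lies below that. From the spacing of low values, an FPKM of 1 over an assumed transcript of 2 kb stood for 19.1, 18.1, 17.9 and 18.1 counted units. The intervals below are 95% exact counting intervals on that basis. They cover counting error only, depend on the assumed length, and leave out variation between animals and sorts. Setd2 itself stood at 14.1, 12.4, 15.3 and 15.5, a gene-level value that cannot check the deletion of single exons. The sort markers were listed in every library, with Kit at 41.1 to 61.0 and Ly6a, which encodes Sca-1, at 3.17 to 8.80. Xist was listed in both old libraries and in neither young one, so age and the sex of the animals cannot be told apart.

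Gimap6 had the highest scaled FPKM of the family in all 4 libraries. GIMAP6 is linked to autophagy through its binding of GABARAPL2. Its values were 15.3, 12.1, 25.5 and 19.7, with both old libraries above both young ones and each KO below its WT. It made up 44.7% to 56.4% of the summed FPKM of the listed members. Gimap9, of less well known function, came next in every library, at 7.96, 6.39, 6.13 and 7.12, with young WT as its highest value. The counting intervals of Gimap6 and Gimap9 did not overlap in any library.

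Gimap5, the member whose loss causes lymphopenia, had values of 3.72, 3.22, 3.59 and 2.78. It followed Gimap9 in 3 libraries, and in old WT it came after Gimap3, its close paralog, at 4.06. Gimap3 and Gimap5 did not differ beyond their counting intervals in either old library, at 3.16 to 5.10 against 2.76 to 4.59 in old WT and 1.61 to 3.08 against 2.05 to 3.66 in old KO. In young cells Gimap3 was far lower, with 0.835 for WT and 0.576 for KO.

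The other 4 members stayed low. Gimap8, a larger member with several GTPase domains, stood at 2.35, 1.81, 1.64 and 1.74. Gimap7, a GTPase that can stimulate hydrolysis by a related family member, stood at 1.67, 1.003, 3.15 and 1.13, with old WT as the 1 high library. Gimap1, which mature T and B cells need, stood at 1.57 and 1.27 in young WT and KO and was listed in neither old library. Gimap4, a gene linked to T cell death, had 0.891 in young WT, 1.18 in old WT and 0.886 in old KO and was not listed in young KO. The counting intervals of Gimap8, Gimap7 and Gimap1 overlapped in young cells, so their order there is not set. The mean value of Gimap6 lay at percentile 81.5 of the genes listed in all 4 libraries and that of Gimap9 at percentile 53.1, whereas those of the other members lay at percentile 28.7 or lower.

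**Figure D1:**
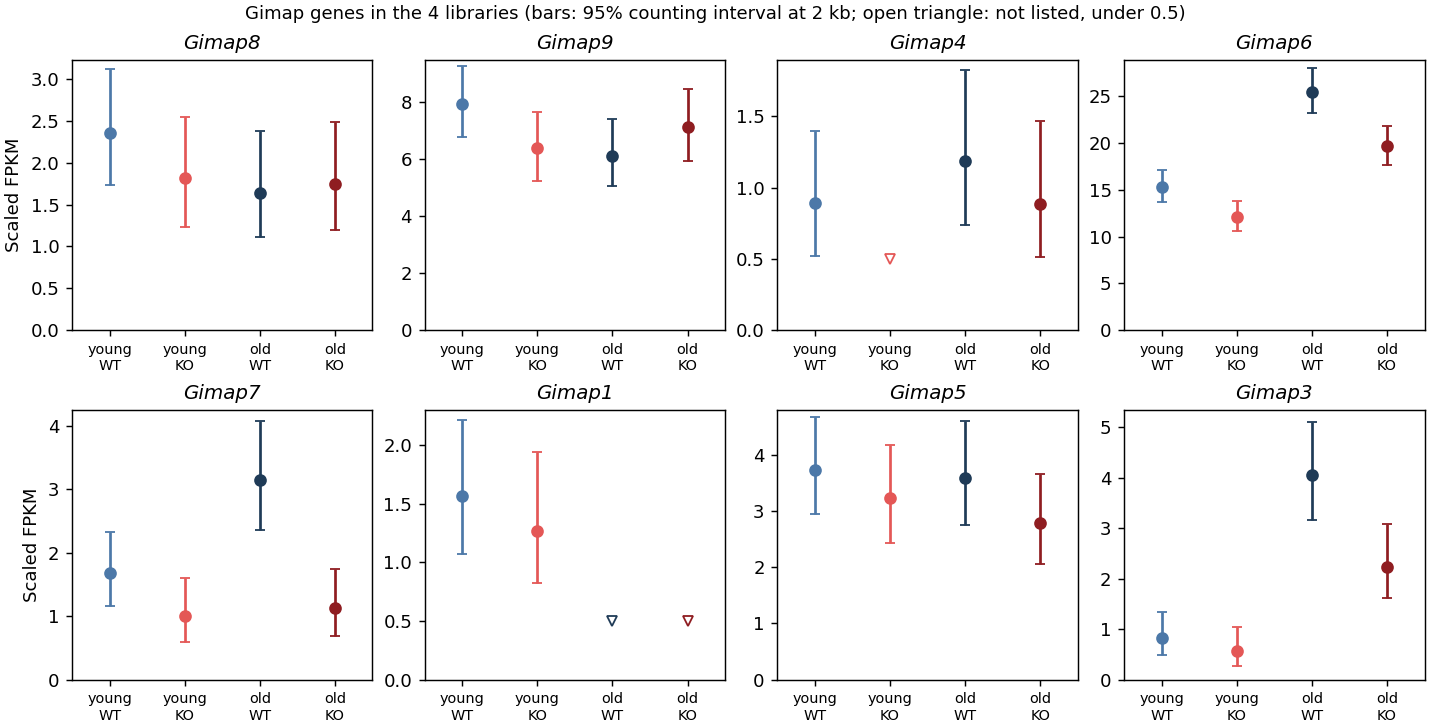
Scaled FPKM (vertical axis, from 0, with its own range for each gene) of the 8 Gimap genes in the 4 libraries, in their order along the chromosome. Points are single libraries, bars the 95% counting interval at an assumed 2 kb, and open triangles libraries that do not list the gene. Gimap6 and Gimap3 are higher in both old libraries, and Gimap7 is highest in old WT, at 3.15.

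The first comparison asks how loss of Setd2 goes with these genes in young cells. Each of the 7 Gimap genes listed in both libraries had a lower value in young KO than in young WT, by less than 2-fold. Over the 7 members listed in both libraries the summed FPKM was 33.4 in WT and 26.4 in KO, a ratio of 0.790, and the ratio was 0.788 without Gimap6. Differences were taken on the log2(FPKM + 1) scale, which understates those of low genes, and a gene was measured where either library reached 1. Of the 6 measured members 6 lay below 0, where 49.5% of 12409 measured genes did, and their median was -0.27 against 0.00 for all genes.

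Gimap7 had the largest difference among them, at -0.42, and Gimap6 the best counted one, at -0.31 with a KO to WT ratio of 0.792 (0.662 to 0.945). Gimap9 followed at -0.28, Gimap8 at -0.25, Gimap1 at -0.18 and Gimap5 at -0.16. Of the 6, Gimap6 alone had a counting interval below 1, which 11.5% of 12169 measured genes listed in both young libraries also had at the same assumed length. Of all measured genes 12.9% were as low as Gimap6 or lower, and 8.24% as low as Gimap7 or lower. None of the 6 reached 2-fold, a size that 1.72% of all measured genes reached in either direction. The other 2 members lay under 1 in both libraries, Gimap3 at 0.835 and 0.576 and Gimap4 at 0.891 and unlisted.

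The second comparison asks the same in old cells. Gimap7 and Gimap3 were lower in old KO than in old WT, Gimap6 was lower by about as much as in young cells, and Gimap8 and Gimap9 were not lower. Gimap7 had 3.15 in WT against 1.13 in KO, a ratio of 0.359 (0.205 to 0.612). Its difference was -0.96 on the log2(FPKM + 1) scale, just short of 2-fold there, and 2.87% of all measured genes were as low or lower. Gimap3 stood at 4.06 and 2.24, a ratio of 0.552 (0.370 to 0.835) and a difference of -0.64. Gimap6 stood at 25.5 and 19.7, a ratio of 0.772 (0.668 to 0.888) and a difference of -0.36. For these 3 of the 7 measured members the interval lay below 1, as it did for 12.5% of 12117 measured genes listed in both old libraries, all taken at the same assumed length.

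The remaining members showed smaller differences in old cells. Gimap5 differed by -0.28, with a ratio of 0.774 (0.520 to 1.14), and Gimap4 by -0.21, with a ratio of 0.748 (0.369 to 1.52). Gimap4 was measured through its WT value alone. Gimap8 lay at 0.05 and Gimap9 at 0.19, the latter with a ratio of 1.16 (0.888 to 1.51), and both had been on the lower side in young KO. In all, 5 of the 7 measured members lay below 0, against 49.7% of 12478 measured genes, and their median was -0.28 against 0.00. None reached 2-fold on this scale, which 4.3% of all measured genes did in either direction. With a pseudocount of 0.1 in place of 1, Gimap7 passed that limit at -1.40, as did 5.12% of all measured genes on the lower side. The summed FPKM of the 7 members listed in both libraries was 45.2 in WT and 35.6 in KO, a ratio of 0.786, close to the ratio in young cells.

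**Figure D2:**
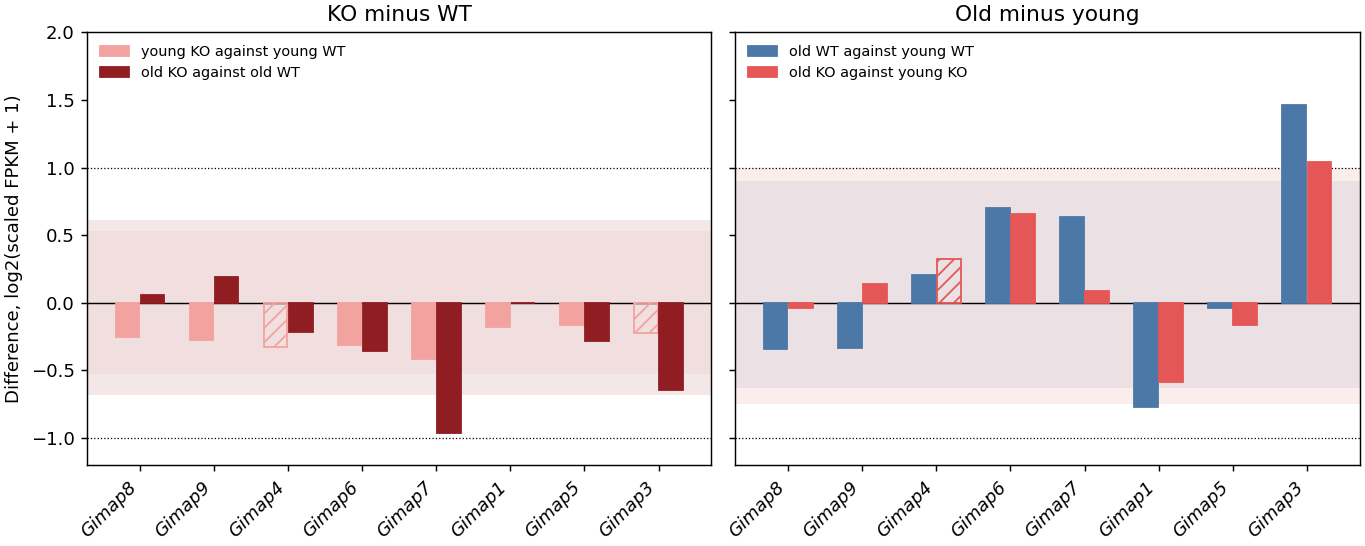
Differences on the log2(scaled FPKM + 1) scale for each Gimap gene, KO minus WT on the left and old minus young on the right, with 1 bar per pair of libraries. Hatched bars are members under 1 in both libraries, shaded bands hold the middle 90% of all measured genes, and dotted lines mark 2-fold. Gimap7 in old KO, at -0.96, and Gimap3 in both age comparisons, at 1.46 and 1.04, lie outside the bands, as does Gimap1 in old WT at -0.77, with its old value set at the listing limit.

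The age comparisons use the same libraries again and differ in sex-linked genes, as given above. Young and old libraries also differ in the spacing of their low values, as given with the processing below. The part of this in the age differences was not tested. Gimap3 was higher in old cells of both genotypes, at 0.835 in young and 4.06 in old WT, a ratio of 4.86 (2.83 to 8.78), and at 0.576 and 2.24 in KO, a ratio of 3.89 (1.97 to 8.99). On the log2(FPKM + 1) scale this was 1.46 in WT and 1.04 in KO, and Gimap3 was the only member to reach 2-fold in either comparison. Of all measured genes 5.55% did so in WT and 7.19% in KO. Gimap3 was measured here through its old values alone.

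Gimap6 was also higher in old cells, with ratios of 1.66 (1.44 to 1.93) in WT and 1.62 (1.36 to 1.93) in KO and differences of 0.70 and 0.65. Gimap7 was higher in old WT, at 0.63 with a ratio of 1.88 (1.20 to 2.97), and lay at 0.09 in old KO. Gimap9 was lower in old WT, at -0.33 with a ratio of 0.770 (0.601 to 0.993), and lay at 0.14 in old KO. Gimap5 lay at -0.04 and -0.16 and Gimap8 at -0.34 and -0.04 in WT and KO. Gimap4 lay at 0.21 in WT and under 1 in both KO libraries. Gimap1, listed in the young libraries alone, lay at -0.77 in WT and -0.59 in KO with its old value set at the listing limit, so the real differences are at least that large. In sum 4 of 8 measured members lay above 0 in WT, against 49.2% of 12569 genes, and 4 of 7 in KO, against 49.8% of 12534. The family therefore did not move as 1 block between ages, and its summed FPKM was higher in old cells mainly through Gimap6 and Gimap3. Over the members listed in both libraries, 7 in WT and 6 in KO, the ratio of the sums was 1.38 in both genotypes. Without Gimap6 it was 1.13 in WT and 1.15 in KO. These ratios leave out Gimap1, unlisted in old cells, and in KO also Gimap4. The sums over all members listed in a library were 34.3, 26.4, 45.2 and 35.6. Without Gimap6 they were 19.0, 14.3, 19.7 and 15.9.

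Gimap3 and Gimap5 are so alike that reads can fit both, and the sources used here do not say how such reads were assigned. The split between the 2 genes is therefore uncertain. The ratio of Gimap3 to Gimap5 was 0.224, 0.179, 1.13 and 0.806, and their summed FPKM was 4.56, 3.80, 7.65 and 5.02. The old to young ratio of the sum was 1.68 in WT and 1.32 in KO, and its KO to WT ratio was 0.833 in young and 0.656 in old cells. The higher level in old WT cells was thus present in the sum, at a smaller ratio than for Gimap3 alone.

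The cluster spans 124 kb of chromosome 6, from 48647234 to 48770851 (mm10, build GRCm38). In order along it lie Gimap8 (ENSMUSG00000064262, 48647234 to 48660875), Gimap9 (ENSMUSG00000051124, 48676129 to 48679114), Gimap4 (ENSMUSG00000054435, 48684549 to 48692060), Gimap6 (ENSMUSG00000047867, 48701582 to 48708225). They are followed by Gimap7 (ENSMUSG00000043931, 48718621 to 48724636), Gimap1 (ENSMUSG00000090019, 48739054 to 48743795), Gimap5 (ENSMUSG00000043505, 48746197 to 48754210) and Gimap3 (ENSMUSG00000039264, 48764464 to 48770851). Within 500 kb on either side of it, 26 genes were listed in at least 1 library, of which 18 were not members. Outside the cluster the values did not share the direction of the members in young KO: 9 of 12 measured neighbours lay above 0, with a median of 0.12. In old KO 5 lay above and 5 below 0, with a median of 0.01. Of all measured genes 49.5% lay below 0 in young KO and 49.7% in old KO. None of these neighbours differed by 2-fold between KO and WT at either age, as 1.72% of all measured genes did in young and 4.3% in old cells. With so few neighbours, a count of 0 does not set them apart from all genes. Tmem176b, beside Gimap3, stood at 12.7, 14.2, 16.7 and 15.4, and its overlapping neighbour Tmem176a at 9.24, 7.86, 9.87 and 8.06. Both encode membrane proteins of immune cells.

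Within the cluster lie 3 further genes. Gimap1os (48738346 to 48741444), named for the strand opposite to Gimap1, overlaps it and had values of 1.23, 2.43, 0.731 and 1.22. It was thus higher in KO at both ages, by 0.62 and 0.36, opposite to most members. The sources used here do not say whether counting used strand, so reads of Gimap1 and Gimap1os cannot be told apart, and their sum was 2.80 for young WT against 3.70 for young KO. Gm28053 (48718607 to 48752644) covers Gimap7, Gimap1, Gimap1os and Gimap5 and stood at 0.772, 0.788, 1.24 and 0.741. Old WT was its high library, as for Gimap7, and reads may be shared between them. RP24-315D19.4 (48755338 to 48756368), between Gimap5 and Gimap3, stood at 1.52, 1.86, 1.82 and 1.48. Its KO difference was 0.18 in young and -0.19 in old cells. Over the members whose locus overlaps no other listed gene (Gimap3, Gimap4, Gimap6, Gimap8 and Gimap9), the median KO difference was -0.28 in young cells, with 3 of them measured, and -0.21 in old cells, with all 5 measured. This selection was made after the data were seen.

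**Figure D3:**
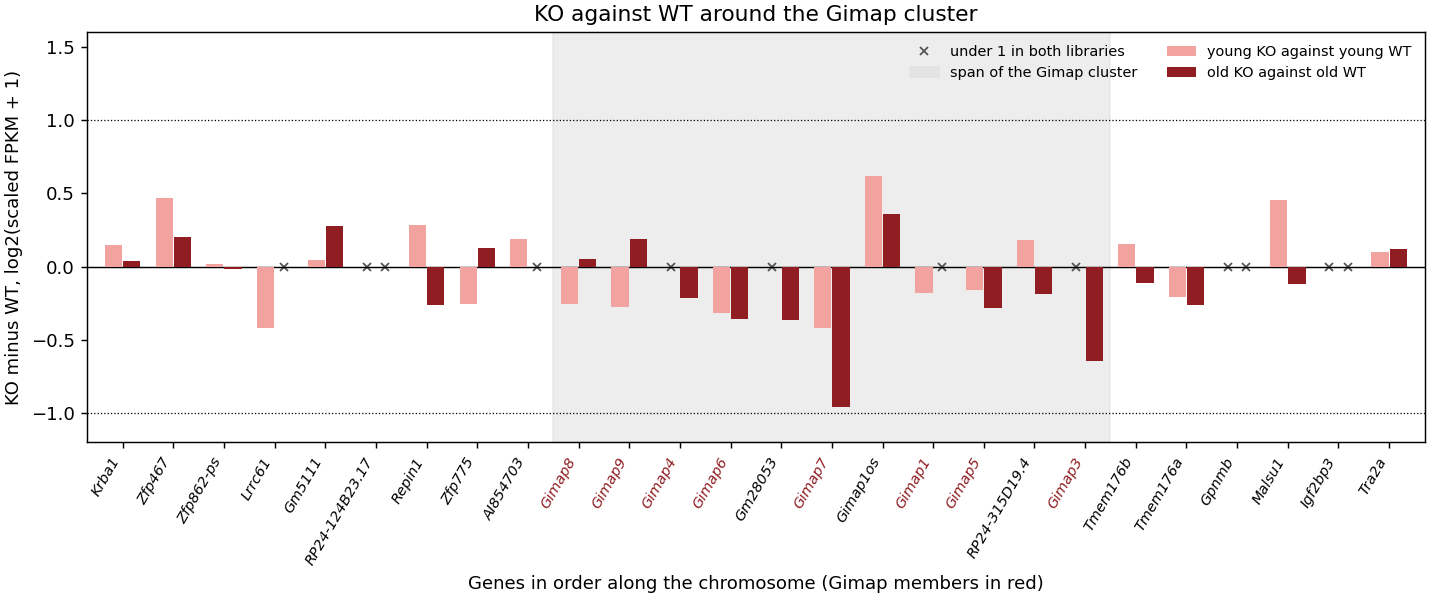
KO minus WT differences, on the log2(scaled FPKM + 1) scale, of the 26 listed genes within 500 kb of the Gimap cluster, in their order along the chromosome. Light bars are young and dark bars old libraries, crosses mark genes under 1 in both libraries of a comparison, and shading marks the cluster. The measured members lie below 0 in young cells, with Gimap1os above 0, and Gimap7 is lowest in old cells.

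Genes linked to GIMAP proteins by binding, autophagy or lymphocyte survival form a list of 26. In young cells 14 of 25 measured lay below 0, with a median of -0.05, and in old cells 18 of 26 lay above 0, with a median of 0.16. Of all measured genes 49.5% lay below 0 in young and 49.7% in old cells. No gene of the list differed by 2-fold between KO and WT at either age. Of all measured genes 1.72% reached that size in young and 4.3% in old cells. Bcl2, the survival factor that GIMAP proteins have been reported to bind, stood at 25.9, 20.2, 24.4 and 23.8. Its antagonist Bcl2l11 (BIM) stood at 2.99, 2.40, 5.11 and 6.83, and the death effector Bak1 at 8.60, 8.21, 10.01 and 13.8. Mcl1, a survival factor of blood stem cells, stood at 70.0, 59.6, 100.3 and 122.7. Gabarapl2, the partner of GIMAP6, was picked out after its values were seen. It stood at 7.06, 6.40, 9.90 and 9.01, lower in KO than in WT at both ages. Set beside it, Gabarap stood at 24.4, 26.99, 24.6 and 26.98 and Map1lc3b at 8.94, 9.12, 7.07 and 8.61. Map1lc3a stood at 0.620, 0.757, 1.80 and 2.37. Gabarap, Map1lc3b and Map1lc3a were thus higher in KO than in WT at both ages, opposite to Gabarapl2. Gabarapl1 was lower in young KO and slightly higher in old KO, at 20.6, 18.9, 24.8 and 25.01.

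Another list held 30 GTPases of other families, among them the interferon-inducible GBP and IRG proteins and the septins. In young cells 21 of 25 measured lay below 0 in KO, against 49.5% of all measured genes, with a median of -0.14. None of the 25 differed by 2-fold, where 1.72% of all measured genes did. In old cells 20 of 29 lay above 0, with a median of 0.23, where 49.7% of all measured genes lay below 0. There Gbp3, a guanylate-binding protein, had 4.78 in WT against 8.27 in KO, and Tgtp2, an IRG protein, 9.97 against 15.1. The antiviral Mx1 was not listed in old WT and had 2.06 in old KO. It was the 1 gene of the list past 2-fold, against 4.3% of all measured genes. The septin gene Sept8 went the other way, at 10.8 and 5.64. The Gimap members and these GTPases thus had medians of the same sign in young KO and of opposite sign in old KO.

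Gimap genes are strongly expressed in mature lymphocytes, so markers of cells that the sort could hold are given beside them. Of 30 T and NK cell markers, 11, 10, 18 and 22 were listed, with summed FPKM of 84.5, 69.6, 72.5 and 83.7. Cd3e, a part of the T cell receptor complex, was listed in neither young library and had 0.754 in old WT against 1.77 in old KO, while Cd4, Cd8a, Zap70 and Bcl11b were listed in none. More T and NK markers were thus listed in the old libraries, where Gimap3 and Gimap6 were higher. Nkg7, a gene of cytotoxic cells, made up much of these sums, at 58.5, 47.9, 33.6 and 38.3. In old KO against old WT 10 of 16 measured markers of this list lay above 0 and 6 below, where 49.7% of all measured genes lay below. Of 24 genes of early lymphoid priming, 22, 21, 21 and 23 were listed and summed to 301, 248, 327 and 381. Dntt, the terminal transferase of early lymphoid cells, had values of 110.3, 61.9, 120.1 and 117.2. Stem and progenitor genes, all 19 listed everywhere, summed to 405, 371, 332 and 323. Of these, 12 lay below 0 in young KO and 14 in old KO, with medians of -0.13 and -0.16. The shares of all measured genes below 0 were 49.5% and 49.7%.

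Plasma cell markers were listed for 8, 9, 13 and 12 of 13 genes and summed to 69.7, 80.1, 2238 and 236. B cell markers were listed for 4, 7, 9 and 11 of 16 genes and summed to 26.4, 20.9, 87.6 and 39.4, with Ms4a1, Cd22 and Cr2 in no library. Old WT was therefore the high library for both lists, as it was for Gimap7, Gimap3 and Gimap6. Antigen receptor segments held 26.8% of all FPKM in old WT, 4.67% in old KO, 0.639% in young WT and 0.889% in young KO. Neutrophil markers were listed for 9, 10, 16 and 16 of 16 genes and summed to 972, 872, 1296 and 2351, and monocyte markers for 14, 14, 14 and 16 of 16, with sums of 213, 174, 203 and 637, so that both were highest in old KO. Erythroid markers, all 16 listed everywhere, summed to 320, 730, 281 and 197, and all 16 were higher in young KO than in young WT. Endothelial markers were listed for 9, 10, 12 and 8 of 16 genes, with sums of 56.3, 53.9, 49.0 and 43.0, and Sox17, Sox18, Flt1 and Lyve1 were in no library. The part of these cells in the Gimap differences was not tested, and in such bulk RNA fewer cells of a type and less RNA per cell cannot be told apart. When antigen receptor segments, predicted and mitochondrial genes were left out of the scaling, the medians of the members were -0.27 in young KO and -0.28 in old KO.

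**Figure D4:**
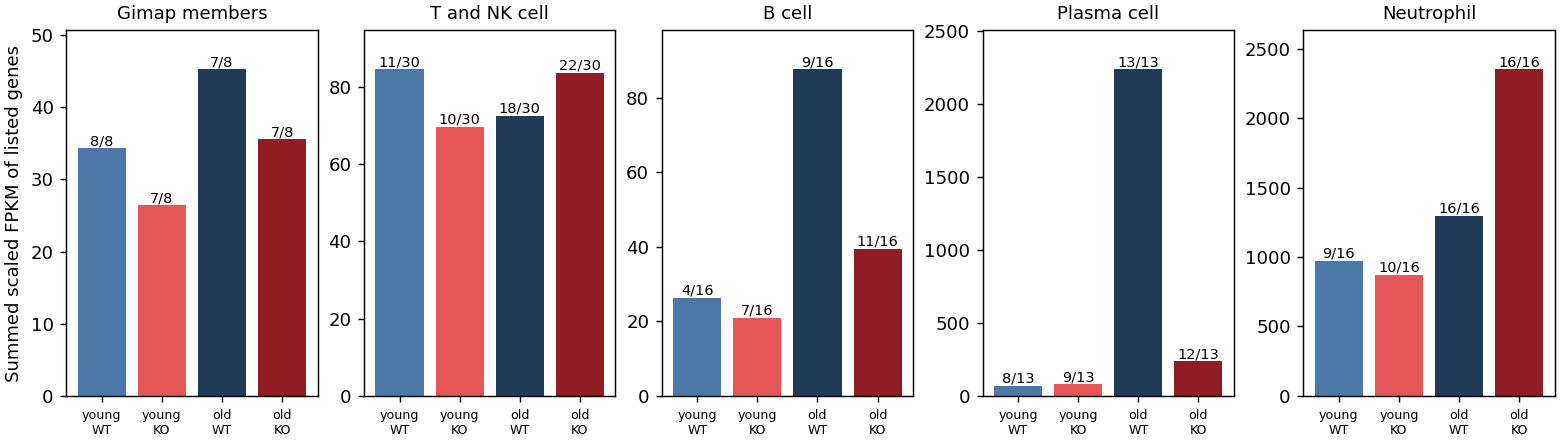
Summed scaled FPKM (vertical axis, from 0, with its own range for each list) of the Gimap members and of 4 lists of cell type markers in the 4 libraries. Numbers over the bars give how many of the list's genes are listed. The Gimap sum is highest in old WT, at 45.2, where the plasma cell sum stands at 2238.

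Among 7046 other named genes listed in all 4 libraries and at 5 or more in at least 1, those most like the family were ranked by distance between profiles. The profile was the log2(FPKM + 1) value less its mean over the 4 libraries. Nearest to the mean profile of the 6 members listed in all 4 libraries were Rpap3 (0.03), Hsd17b10 (0.06), Cenpj (0.06), Ada (0.07) and Sptan1 (0.08). The members themselves lay from 0.36 (Gimap6) to 0.96 (Gimap3) from their own mean. The 2 sets of distances cannot be set against each other. The named genes are the closest of 7046 and reach 5 in some library, while members had no such minimum. Nearest to Gimap6 alone were Dusp6 (0.02), Ndufs4 (0.05), Ppp1r11 (0.08), Batf (0.09) and Atpif1 (0.09), of which Dusp6, a phosphatase of the ERK kinases, stood at 26.7, 21.5, 43.4 and 34.2. The nearest member to Gimap6 was Gimap7, at 0.53. These distances rest on 4 libraries and are a description only.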

How the data were processed

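Total RNA of LSK cells was sequenced in 4 libraries, 1 per group, each from 100 ng per the labels' protocols. The 2 bisulfite sequencing samples were not analysed here. The deposited values are 1 FPKM per gene and library, made by the authors, per the file headers. Per the submitters' processing notes, StringTie 1.3.0, HISAT2 2.0.4 and mm10 (GRCm38) were among the tools and builds, whose roles are not stated. Gene symbols were taken from the files, 18 date-like ones were restored by identifier, and rows of the same symbol were summed.

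From these values, median-of-ratios scaling over 10935 genes multiplied young WT by 0.940 and each other library by 1.02. Unlisted genes were set to 0.5 before scaling. The pseudocount was 1 and a gene was measured at 1 or more in either library. Depth was read from the spacing of low values in loci under 1500 bp, where 61.2% to 71.5% of values lay within 0.02 of a whole step and chance gives 4%. A counted unit was 2 steps in all libraries. With single steps, which the old libraries also use (55.3% and 58.7% odd), the intervals would be narrower. In young WT and young KO 1.06% and 0.690% of steps were odd, so the spacing differed between young and old libraries. Intervals are exact binomial for ratios and exact Poisson for levels (scipy 1.17.1).

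The members and lists were chosen with earlier results of these data known, and the motifs after the values were seen. Named genes are all members, all genes within 500 kb, up to 4 genes of a list with the largest difference at 5 or more in some library, and the 5 most alike in profile. Mx1, Gabarapl2, the Gabarap and Map1lc3 genes set beside it, and the markers named as listed or absent were chosen after their values were seen. The scaling and the fold limit were tested on a simulated pair of young libraries. Changes past the fold limit were planted there in genes at 5 or more. Smaller changes, changes in lower genes, the depth estimate and the counting intervals were not tested in this way.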

Additional observations from a re-analysis of the deposited data

Results flagged for a closer look

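For Gimap9 the KO difference had opposite signs at the 2 ages, at -0.28 in young and 0.19 in old cells on the log2(FPKM + 1) scale, a gap of 0.47. The same gap stands between its age differences of -0.33 in WT and 0.14 in KO, which come from the same 4 libraries. For Gimap8 the KO difference was -0.25 in young and 0.05 in old cells, a gap of 0.31. With 1 library per group neither gap was tested. Both ratios in old cells had counting intervals that include 1.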

How the results depend on the processing

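No result turned its direction under other scalings, pseudocounts, filters or treatments of unlisted genes. For single members only the scalings could have done so. A pseudocount or fold limit cannot turn the sign of a member, and a filter leaves its value unchanged. Setting unlisted genes to 0 can only widen the differences of Gimap1. The median member difference ran from -0.36 to -0.13 in young KO, -0.37 to -0.08 in old KO, 0.01 to 0.30 in old WT against young WT and 0.03 to 0.40 in old KO against young KO. Counts past the fold limit did depend on it. In old KO 1 member was lower with a pseudocount of 0.1 (5.12% of all measured genes) and 2 with a 1.5-fold limit (6.48%), against 0. In old WT against young WT 1 member was lower with a pseudocount of 0.1 (3.60% of genes), with unlisted genes at 0 (2.37%) or with a 1.5-fold limit (5.88%), against 0. There the count higher, 1, became 3 at 1.5-fold (9.93%) and 0 with a pseudocount of 5 or a minimum of 5. In old KO against young KO 1 member was lower under the same 3 settings (5.43%, 3.44% and 8.01%), against 0, and the count higher, 1, became 2 at 1.5-fold (12.4%) and 0 with upper-quartile scaling, a pseudocount of 5 or a minimum of 5. The minimum of 5 left 2 members. Among single members, 1 of 272 settings was flagged for the size of its shift. This was Gimap3 in old WT against young WT, which went from 1.46 to 0.63 at a pseudocount of 5. That setting shrank other low members too, such as Gimap7 in old KO from -0.96 to -0.41. Without scaling the median of all genes moved to -0.10 in young KO and -0.11 in old WT against young WT. Leaving out overlapping loci, or members not listed in all 4 libraries, was added after the data were seen. No paired analysis was possible because each group had 1 library. Depth limits members below an FPKM of 2, whose counting intervals are wide.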
